A study of Rattus norvegicus with 6 samples.

Results

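The genes described here are 10 transcripts of capillary endothelium, the cells that line the smallest vessels: Cd300lg, Gpihbp1, Cd36, Fabp4, Aqp1, Aqp7, Meox2, Plvap, Aplnr and Rgcc. They were found by their symbols in the deposited table, where they are 10 of 17833 genes, and all 10 were among the 15150 genes that passed the filter on low values. The list was chosen on measured values, those of Cd300lg in the banded against the sham rats, with capillary genes of known function around it, so the values of the 10 genes in that comparison are a description and carry no test. The question was how a set of capillary genes stood in the pulmonary vein (PV) after the vein had been narrowed.

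Bulk RNA-seq covered the PVs of 6 wild type Sprague-Dawley (SD) rats at postnatal day 21. In 3 rats both PVs were banded at postnatal day 1 (bilateral PV banding, BPVB), and 3 sham rats had their chest opened at the same age with no constriction of the vein. All 6 were operated under cold anesthesia, and PV tissue was taken from the right upper lobe, so each library holds the vein wall with the smaller vessels, heart-type muscle and lung tissue that came with it. Library totals lay between 23439506 and 29725808 fragments. Levels are FPKM, the fragments per kilobase of transcript scaled to the library total, so levels can be set side by side between genes, and between rats as shares of each library.

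Capillary endothelium takes up fatty acids in steps. Lipoprotein lipase, held on the capillary wall by GPIHBP1, releases fatty acids from triglyceride-rich particles, CD36 takes them up and FABP4 carries them within the cell. The transcription factors MEOX2 and TCF15 act together on fatty acid uptake in heart capillaries. AQP1 is the water channel of capillaries, and AQP7 passes glycerol as well as water. PLVAP builds the diaphragms that span fenestrae and caveolae, APLNR is the receptor of the peptide apelin, and RGCC is a cell cycle regulator with high levels in many capillary beds. CD300LG (nepmucin) is a surface glycoprotein of capillary and venular endothelium that binds lymphocytes. Several of the 10 are not exclusive to this cell type: Aqp7, Cd36 and Fabp4 are also adipocyte genes, and Cd36 and Fabp4 are found in macrophages.

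The 10 genes did not differ between the groups in 1 direction. The mean was lower in the BPVB group for 6 genes and higher for 4. In 5 genes every sham library lay above every BPVB library, in 4 genes every BPVB library lay above every sham library, and Fabp4 overlapped. Over all tested genes the groups did not overlap in 45.6%, with every sham library above in 20.5% and every BPVB library above in 25.2%. By the limit on the limma adjusted p used below for other genes, 8 of the 10 would be called, 5 lower and 3 higher, where 31.5% of all tested genes were called, and 3 of the 10 (Cd300lg, Aqp7 and Cd36) also differed by over 1 on the log2 scale, where 3.27% of all did. The median log2 difference of the 10 genes was -0.12, against 0.02 over all tested genes. Because the list was drawn up from the same contrast, nothing is read from these shares.

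**Figure D1:**
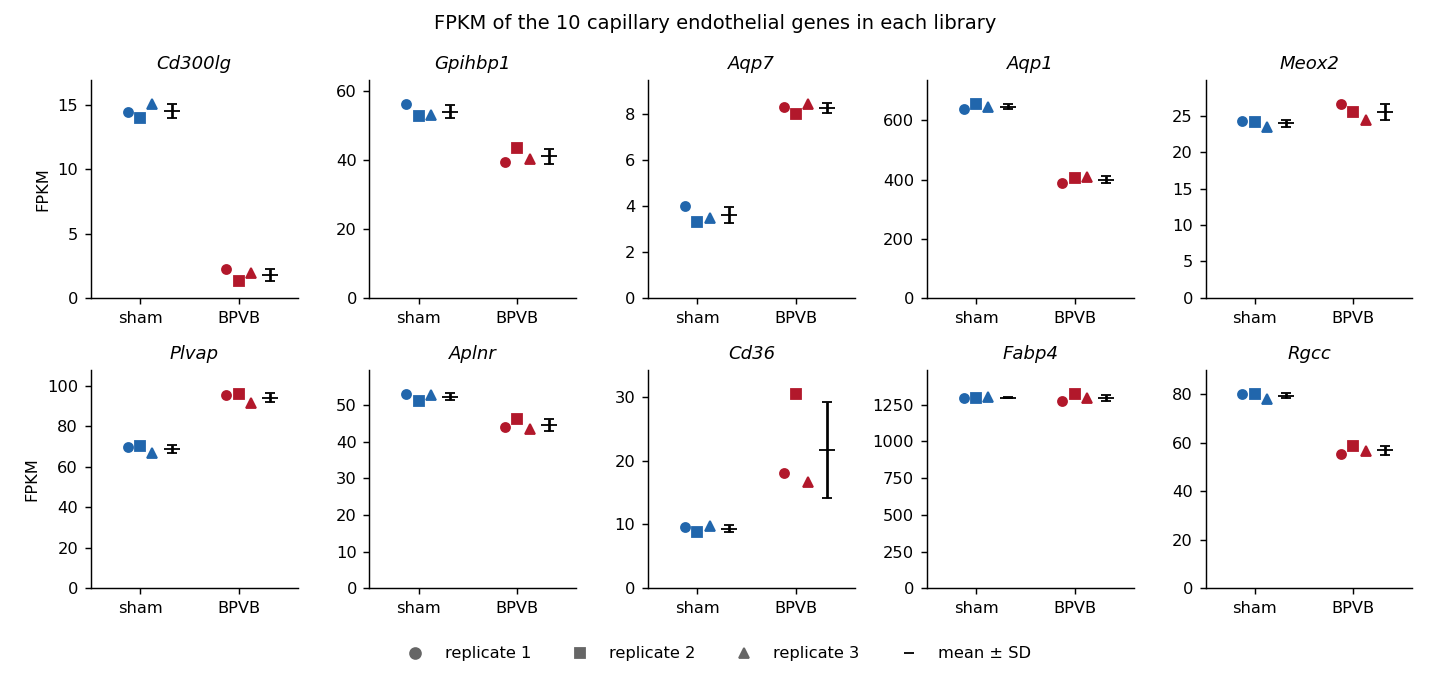
FPKM (y axis, from 0) of each of the 10 genes in the 3 sham and 3 BPVB libraries (x axis), 1 point per rat with the replicate number as the symbol, and the mean ± SD beside them. Cd300lg sits between 14.0 and 15.1 FPKM in the sham libraries and between 1.29 and 2.22 in the BPVB libraries, while Fabp4 overlaps and Cd36 has 1 high BPVB library.

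Promoter sequences, in RefSeq on the build GRCr8, were matched for 5 of the 10 genes: Aqp1, Meox2, Plvap, Cd36 and Rgcc. The remaining genes are Cd300lg, Gpihbp1, Aqp7, Aplnr and Fabp4. Of the matched genes, Aqp1 and Rgcc had lower means in the BPVB group and Plvap and Cd36 higher means, and their windows are shown so that the lower and the higher genes can be read side by side. Each window runs from 250 bases before the start of the gene to 50 bases after it, 5′ to 3′ on the strand of the gene. Capitals mark matches on either strand to the 6 motifs searched, which were the TATA box (TATAAA), the GC box (GGGCGG), the ETS site (CCGGAA), the GATA site (AGATAA), the nuclear receptor half-site (AGGTCA) and the E-box (CACGTG). Aqp1 lies at chr4:85812534-85812833 on the plus strand, Rgcc at chr15:61084359-61084658 on the minus strand, Plvap at chr16:18231230-18231529 on the minus strand and Cd36 at chr4:18246332-18246631 on the plus strand.
Aqp1: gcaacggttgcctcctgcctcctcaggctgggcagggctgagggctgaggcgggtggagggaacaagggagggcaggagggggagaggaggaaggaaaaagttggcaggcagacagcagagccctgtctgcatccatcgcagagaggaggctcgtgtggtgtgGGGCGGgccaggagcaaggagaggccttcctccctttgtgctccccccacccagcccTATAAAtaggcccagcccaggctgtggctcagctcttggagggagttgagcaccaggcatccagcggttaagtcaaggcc
Rgcc: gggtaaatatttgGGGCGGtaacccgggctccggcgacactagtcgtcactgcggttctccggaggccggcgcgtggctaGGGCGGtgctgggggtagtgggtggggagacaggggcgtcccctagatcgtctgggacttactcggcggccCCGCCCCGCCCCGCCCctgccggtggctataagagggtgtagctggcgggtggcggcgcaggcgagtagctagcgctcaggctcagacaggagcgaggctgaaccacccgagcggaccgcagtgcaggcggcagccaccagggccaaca
Plvap: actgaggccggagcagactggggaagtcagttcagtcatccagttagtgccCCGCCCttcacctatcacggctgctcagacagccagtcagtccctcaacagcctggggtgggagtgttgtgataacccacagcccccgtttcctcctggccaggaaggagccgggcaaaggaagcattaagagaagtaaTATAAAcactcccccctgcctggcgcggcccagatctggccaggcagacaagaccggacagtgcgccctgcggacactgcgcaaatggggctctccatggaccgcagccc
Cd36: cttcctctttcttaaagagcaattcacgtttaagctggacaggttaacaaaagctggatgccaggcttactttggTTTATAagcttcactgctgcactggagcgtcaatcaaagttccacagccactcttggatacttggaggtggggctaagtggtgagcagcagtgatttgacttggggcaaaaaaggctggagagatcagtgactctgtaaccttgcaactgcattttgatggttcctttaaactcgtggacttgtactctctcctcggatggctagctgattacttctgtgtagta

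The Aqp1 window had a TATAAA match 30 bases before the start and 1 GC box. Rgcc had no TATAAA match and 5 GC boxes, of which those at 99, 94 and 89 bases before the start overlap each other by their end letters. Plvap had 1 GC box and a TATAAA match 60 bases before the start, and Cd36 had a match on the opposite strand, 175 bases before the start. The window of Meox2, not printed, had 2 TATAAA matches. TATAAA was thus found in 4 of the 5 windows and in 14.2% of all 33469 promoters of the same length, and GGGCGG in 3 of the 5 and in 33.1% of all. The other motifs were in 0 of the 5 windows, against 15.0% of all promoters for CCGGAA, 11.6% for AGATAA, 16.2% for AGGTCA and 6.42% for CACGTG. GC content was 64.0% for Aqp1, 69.7% for Rgcc, 61.0% for Plvap, 55.0% for Meox2 and 45.7% for Cd36, against a median of 51.7% over all promoters. No motif separated the genes with higher from those with lower means: Aqp1 and Plvap each held 1 TATA and 1 GC box.

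Cd300lg (NCBI Gene 684984) had the widest difference of the 10. It stood at 14.5, 14.0 and 15.1 FPKM in the sham libraries and at 2.22, 1.29 and 1.93 FPKM in the BPVB libraries. The 3 sham rats were close to each other, and the highest BPVB rat lay far below the lowest sham rat. The means were 14.5 ± 0.54 FPKM (SD, n = 3) in the sham group and 1.81 ± 0.48 FPKM (SD, n = 3) in the BPVB group, an 8.03-fold lower level, with a difference of -2.72 (SE 0.14) on the log2(FPKM + 0.5) scale. Behind these values stood 861 to 942 fragments per sham library and 88 to 155 per BPVB library, and the BPVB group had a coefficient of variation of 26.2%, against 3.70% in the sham group. BPVB replicate 2 was the lowest library, 0.52 below the mean of the other 2 BPVB libraries on the log2 scale. Among the 10 genes ordered by level, Cd300lg was eighth of the sham group and last of the BPVB group, where its libraries did not overlap those of Aqp7, the next above. On the log2 scale the added pseudocount shrinks the difference of a low gene, and with a pseudocount of 0.1 the difference was -2.97.

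Among the genes of lipid uptake, the lipase anchor Gpihbp1 (NCBI Gene 300027) had 56.3, 52.9 and 53.0 FPKM in the sham libraries and 39.5, 43.5 and 40.2 FPKM in the BPVB libraries. All 3 BPVB rats lay below all 3 sham rats. The means were 54.1 ± 2.0 and 41.1 ± 2.1 FPKM (SD, n = 3 each), a ratio of 0.760 and a log2 difference of -0.39 (SE 0.048).

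The fatty acid carrier Fabp4 (NCBI Gene 79451) was the most abundant of the 10 in both groups, at 1296, 1296 and 1306 FPKM in the sham and 1276, 1321 and 1295 FPKM in the BPVB libraries. The 2 groups overlapped, with the highest and the lowest library both in the BPVB group. The means were 1299 ± 5.8 and 1297 ± 23 FPKM (SD, n = 3 each). The log2 difference was -0.0025 (SE 0.021), and its sign changed with the scaling between libraries, from -0.03 with median-of-ratios factors to 0.03 after rescaling to TPM and 0.13 after quantile normalization.

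The fatty acid receptor Cd36 (NCBI Gene 29184) was higher in the BPVB group and more variable there than any other of the 10. It was at 9.59, 8.75 and 9.70 FPKM in the sham and at 18.0, 30.3 and 16.7 FPKM in the BPVB libraries. BPVB replicate 2 stood apart from the other 2 BPVB rats, which in turn lay above all sham rats. The means were 9.35 ± 0.52 and 21.7 ± 7.5 FPKM (SD, n = 3 each), a 2.32-fold higher level and a log2 difference of 1.12 (SE 0.19). Without BPVB replicate 2 the log2 difference was 0.86. That library's deviation from the other 2 BPVB libraries, 0.79 on the log2 scale, was at the 99.8th percentile of the 12157 genes that averaged 1 FPKM or more, and its deviation in Cd300lg, in the opposite direction, at the 0.938th percentile.

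The level of Cd36 is uncertain, because the rat genome holds on the same chromosome a gene annotated as similar to it, RGD1565355 (NCBI Gene 499985), and the counting could split reads between such copies. RGD1565355 was looked up after the values of Cd36 had been seen. It had 19.9, 14.4 and 20.6 FPKM in the sham and 52.7, 27.7 and 23.9 FPKM in the BPVB libraries. Here BPVB replicate 1, not replicate 2, was the high library, and all BPVB rats were above all sham rats. Its log2 difference was 0.84 (SE 0.26, limma adjusted p = 0.0381), which became 0.50, still called, without BPVB replicate 1, and lost its call without any 1 of the sham libraries (0.90, 0.68 and 0.93) or with no filter on low values. The sum of both was 29.5, 23.2 and 30.3 FPKM in the sham and 70.7, 58.0 and 40.6 FPKM in the BPVB libraries, on average 2.04-fold higher in the BPVB group, with a log2 difference of 0.99 against 1.12 for Cd36 alone. Which of the copies gave rise to the reads in each rat was not tested.

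**Figure D2:**
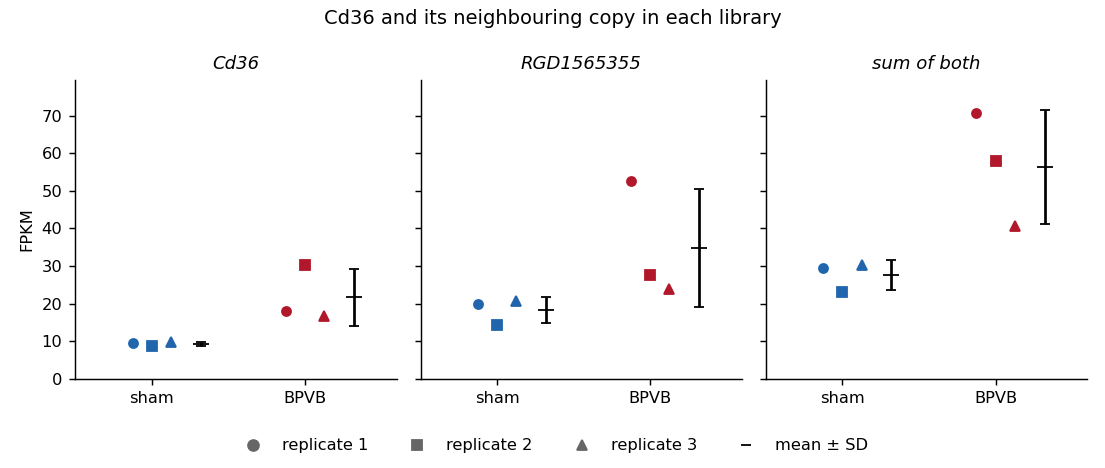
FPKM (y axis, from 0, shared) of Cd36, of its copy RGD1565355 and of their sum in the 3 sham and 3 BPVB libraries (x axis), with 1 point per rat and the mean ± SD beside them. The high BPVB library is replicate 2 for Cd36 (30.3 FPKM) and replicate 1 for the copy (52.7 FPKM), and the sum is above 40 FPKM in every BPVB library and at most 30.3 in the sham libraries.

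The 2 aquaporins differed in opposite directions. The water channel Aqp1 (NCBI Gene 25240), whose promoter is printed above, was at 639, 655 and 644 FPKM in the sham and 387, 404 and 409 FPKM in the BPVB libraries. The groups were far apart and each was tight, with means of 646 ± 8.5 and 400.1 ± 11 FPKM (SD, n = 3 each). The ratio was 0.619 and the log2 difference -0.69 (SE 0.027).

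Aqp7 (NCBI Gene 29171), the aquaglyceroporin, was at 3.98, 3.30 and 3.49 FPKM in the sham and 8.31, 8.02 and 8.44 FPKM in the BPVB libraries. Every BPVB rat lay above every sham rat. The means were 3.59 ± 0.35 and 8.26 ± 0.21 FPKM (SD, n = 3 each), a 2.30-fold higher level and a log2 difference of 1.10 (SE 0.088). Aqp1 was by far the more abundant of the channels in both groups.

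The transcription factor Meox2 (NCBI Gene 29279) was at 24.2, 24.1 and 23.4 FPKM in the sham and 26.6, 25.6 and 24.4 FPKM in the BPVB libraries. The ranges did not overlap, but the lowest BPVB and the highest sham rat nearly touched. The means were 23.9 ± 0.43 and 25.5 ± 1.1 FPKM (SD, n = 3 each), with a log2 difference of 0.09 (SE 0.048).

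The diaphragm gene Plvap (NCBI Gene 56765) was at 70.0, 70.4 and 66.7 FPKM in the sham and 95.5, 95.8 and 91.5 FPKM in the BPVB libraries. All BPVB rats were above all sham rats, at means of 94.3 ± 2.4 and 69.0 ± 2.0 FPKM (SD, n = 3 each), 1.37-fold higher, with a log2 difference of 0.45 (SE 0.036). Plvap thereby passed Rgcc in the order of levels, from the fourth gene of the sham group to the third of the BPVB group.

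The apelin receptor Aplnr (NCBI Gene 83518) was at 53.0, 51.3 and 52.8 FPKM in the sham and 43.9, 46.4 and 43.4 FPKM in the BPVB libraries. The groups did not overlap, and the means were 52.3 ± 0.93 and 44.6 ± 1.6 FPKM (SD, n = 3 each), a log2 difference of -0.23 (SE 0.039).

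Rgcc (NCBI Gene 117183) was at 80.0, 80.0 and 78.3 FPKM in the sham and 55.3, 58.8 and 56.8 FPKM in the BPVB libraries. Its means of 79.4 ± 1.0 and 57.0 ± 1.8 FPKM (SD, n = 3 each) were again well apart, with a log2 difference of -0.48 (SE 0.035).

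In both groups the order of levels began with Fabp4 and Aqp1. Neighbours in that order did not overlap between genes, except Gpihbp1 and Aplnr in both groups and Meox2 and Cd36 in the BPVB group. Apart from Cd36 and Cd300lg in the BPVB group, no gene had a coefficient of variation above 9.74% within a group. Set on the scale of all genes, the 5th and 95th percentiles of the log2 difference over all tested genes were -0.54 and 0.68. Cd300lg and Aqp1 lay below that range, Cd36 and Aqp7 above it, and the other members within it.

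**Figure D3:**
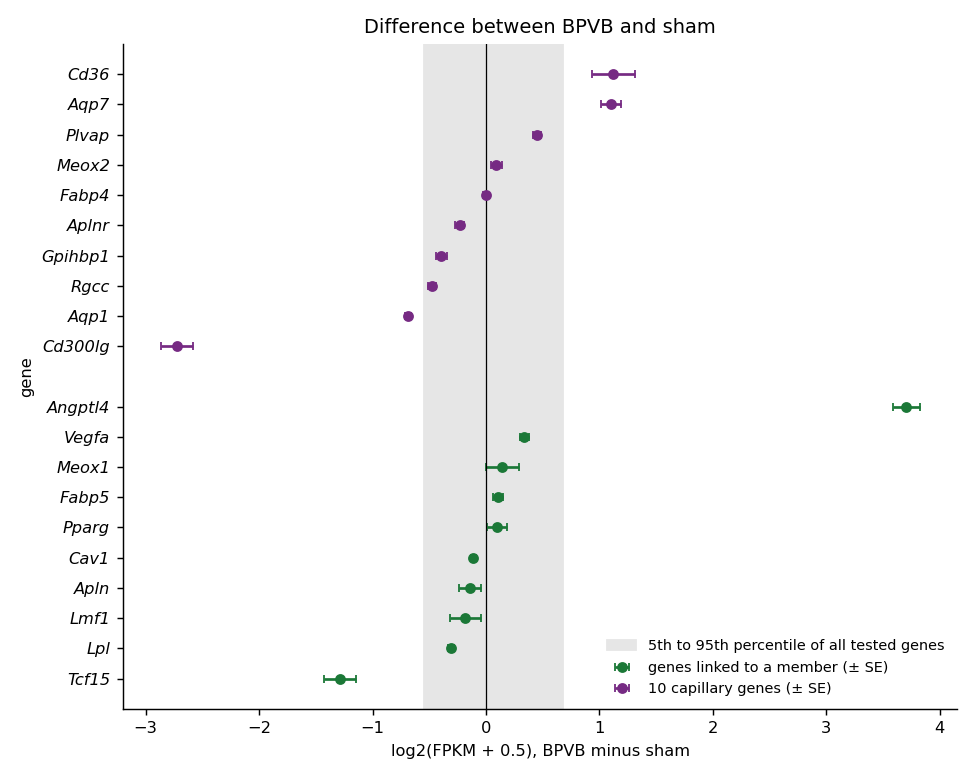
Difference between the groups in log2(FPKM + 0.5), BPVB minus sham (x axis), with its SE, for the 10 capillary genes (purple) and for 10 genes linked to them by function (green), 1 gene per row. The gray band runs from the 5th to the 95th percentile of all tested genes, -0.54 to 0.68, and Cd300lg (-2.72), Aqp1 (-0.69), Cd36 (1.12) and Aqp7 (1.10) lie outside it, as do Angptl4 (3.70) and Tcf15 (-1.29).

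To see whether the level of endothelial transcripts moved as a whole, 23 general endothelial genes were counted. Vwf, 1 of them, is also on the venous list below, with means of 387 FPKM in the sham and 379 FPKM in the BPVB group. The sum therefore need not weigh all vessel types alike. In bulk tissue, fewer cells of a type and less RNA per cell cannot be told apart. The summed level of the 23 genes was 2224, 2235 and 2221 FPKM in the sham and 1939, 1934 and 1929 FPKM in the BPVB libraries, a ratio of 0.869. All BPVB rats were below all sham rats (exact permutation test over the 6 libraries, two-sided p = 0.10, the smallest that 3 against 3 allows). By limma at an adjusted p under 0.05, 15 of the 23 fell and 1 rose, against 14.3% lower and 17.2% higher over all tested genes, and the median log2 difference was -0.17. The number that fell was 13 after rescaling to TPM, 14 with quantile normalization, 16 with limma-voom and 13 to 15 when leaving out 1 library. The largest falls were those of the endothelial transcription factors Sox7 (log2 difference -0.93, adjusted p = 1.50e-06) and Sox18 (-0.55, adjusted p = 2.25e-05) and of the VEGF receptor gene Flt1 (-0.64, adjusted p = 6.83e-06). The adhesion gene Pecam1 fell by 0.17 (adjusted p = 0.00123), Vwf, which encodes von Willebrand factor, did not pass (-0.03, adjusted p = 0.291), and Clec14a, named after its value was seen as the 1 gene that rose, had a log2 difference of 0.26 (adjusted p = 0.0026).

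The 10 genes were also divided by that sum, as a description. Because the sum was lower in the BPVB group (log2 -0.20), the division lifts every gene by that amount and cannot reverse a wider difference. Over all tested genes the divided values did not overlap in 57.7%, with BPVB above in 48.8% and sham above in 8.91%, and nothing is read from the members' counts. Cd300lg had 6.53 ± 0.26 FPKM per 1000 FPKM of endothelial genes in the sham group and 0.936 ± 0.24 in the BPVB group (SD, n = 3 each), a log2 ratio of -2.80. Aqp1 (-0.49), Rgcc (-0.28) and Gpihbp1 (-0.19) were likewise lower relative to the sum in every BPVB library than in every sham library. Aplnr overlapped, with a log2 ratio of -0.03. Relative to the sum, 5 genes were higher in every BPVB library, at log2 ratios of 0.20 for Fabp4, 0.30 for Meox2, 0.65 for Plvap, 1.40 for Aqp7 and 1.42 for Cd36. Fabp4 overlapped before the division, and its ratio is the size of the lift. The difference of Aplnr on the FPKM scale was thus about the size of the difference in the endothelial sum, and those of Cd300lg, Aqp7 and Cd36 were several times larger.

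**Figure D4:**
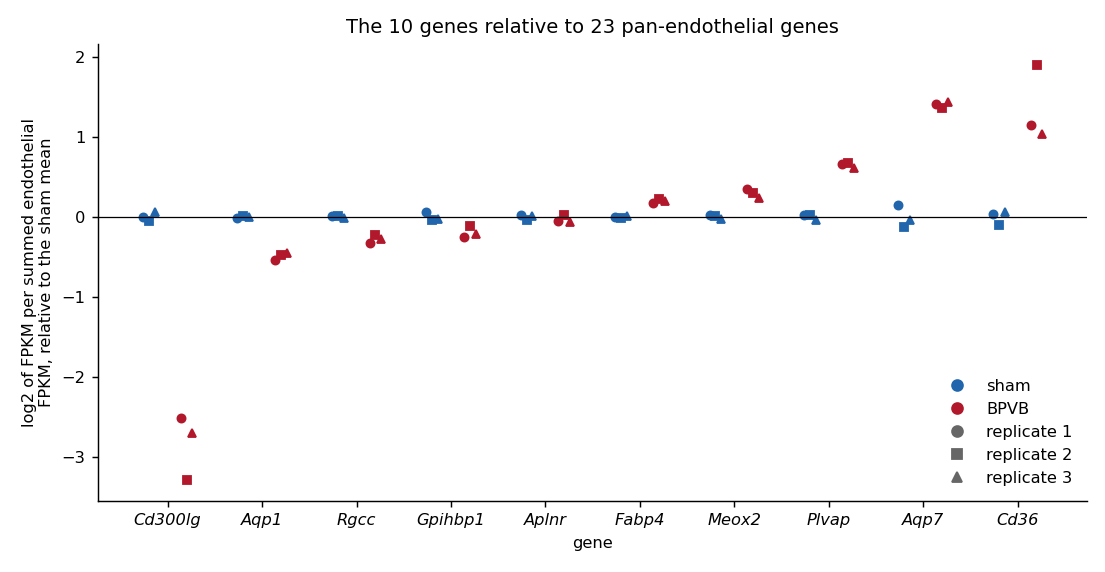
FPKM of each of the 10 genes (x axis) divided by the summed FPKM of 23 pan-endothelial genes in the same library, as log2 relative to the sham mean (y axis), with 1 point per rat, sham in blue and BPVB in red. The BPVB points of Cd300lg lie lowest (group log2 ratio -2.80) and those of Cd36 and Aqp7 highest (1.42 and 1.40), while Aplnr overlaps the sham libraries.

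Of 10 genes linked by function or family to one of the members, which were taken as a list of their own, 2 rose, 3 fell and 5 did not pass (limma), with a median log2 difference of -0.01. Over all tested genes 17.2% rose and 14.3% fell, which is the background for this list and for those that follow. Angptl4, a secreted inhibitor of lipoprotein lipase, was at 2.69, 1.77 and 2.24 FPKM in the sham and 36.1, 36.0 and 32.2 FPKM in the BPVB libraries (log2 difference 3.70, SE 0.12, adjusted p = 1.08e-07). The lowest BPVB rat lay far above the highest sham rat. The lipase itself, Lpl, was at 361, 353 and 350 FPKM in the sham and 290, 280 and 289 FPKM in the BPVB libraries, a fall of 0.31 on the log2 scale (SE 0.026, adjusted p = 3.17e-05). The lipase inhibitor was thus higher, and the lipase and its anchor Gpihbp1 lower, in the BPVB group. Lmf1, the lipase maturation factor, did not pass (-0.18, adjusted p = 0.36), and its difference was -0.29 without sham replicate 2 and -0.08 without sham replicate 3.

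The MEOX2 partner Tcf15 was at 25.9, 33.7 and 28.2 FPKM in the sham and 9.18, 13.0 and 13.1 FPKM in the BPVB libraries (log2 difference -1.29, SE 0.14, adjusted p = 0.000156). The 2 groups were well apart, whereas the ranges of Meox2 itself nearly touched. The paralog Meox1 was at 3.72 to 4.49 FPKM in 5 libraries and at 2.79 in sham replicate 1, and did not pass (0.14, adjusted p = 0.503). Apln, which encodes the ligand of APLNR, had a log2 difference of -0.14 (adjusted p = 0.285, and -0.06 without sham replicate 3), Fabp5, the other endothelial fatty acid binding protein gene, 0.10 (adjusted p = 0.0951), and Pparg, a regulator of Fabp4 and Cd36, 0.09 (adjusted p = 0.465, and 0.02 without sham replicate 1 or 0.17 without sham replicate 3). None of these 3 passed, although Fabp5 did after rescaling to TPM (0.14). The growth factor gene Vegfa rose by a log2 difference of 0.34 (adjusted p = 0.000313), and the caveolin gene Cav1 fell by 0.11 (adjusted p = 0.00817), though under quantile normalization Cav1 did not pass (-0.05).

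Of 21 further genes of capillary endothelium, 7 rose, 7 fell and 7 did not pass, with a median log2 difference of -0.11. Besides Tcf15, the ones with the largest changes were Hpgd, which encodes a prostaglandin-degrading enzyme (1.06, adjusted p = 0.0208), and Fibin (0.86, adjusted p = 3.84e-06). Hpgd was low, at 0.225, 0.99 and 0.749 FPKM in the sham and 1.25, 1.82 and 2.48 FPKM in the BPVB libraries, and lost its call without BPVB replicate 2 or 3 (log2 differences of 1.05 and 0.87), while its difference was 1.68 with limma-voom. The most abundant were Cd93 (-0.29, adjusted p = 7.74e-05) and the adhesion receptor gene Adgrf5 (-0.63, adjusted p = 1.00e-06), and both fell.

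The genes of fatty acid transport were also mixed, with 4 of 13 higher, 3 lower and a median of 0.09. Besides Angptl4, Slc27a3, of the fatty acid transport protein family, rose (0.84, adjusted p = 0.00172), as did Slc27a1 (0.40) and Dgat1 (0.33), and Vegfb, a growth factor linked to endothelial fatty acid uptake, fell (-0.73, adjusted p = 4.50e-06). The call of Dgat1 was lost with median-of-ratios factors, with quantile normalization, with no filter on low values and when any library but BPVB replicate 2 was left out (0.21 without BPVB replicate 1). Of 7 genes of the caveola, the membrane pit in which PLVAP diaphragms also sit, 4 fell and 1 rose, with a median of -0.16. Cavin2 (-0.53, adjusted p = 2.42e-06), Cav2 (-0.21, adjusted p = 0.000392) and Ehd2 (-0.17, adjusted p = 0.000831) fell, and Cavin3 rose (0.11, adjusted p = 0.00984). Plvap was therefore higher in the BPVB group in libraries where most caveola genes that passed were lower. The Gene Ontology terms deposited with the table place Aqp1, Plvap and Cd36 in the caveola, a term held by 0.646% of 13940 tested genes with any term, and Cd300lg, Gpihbp1, Aqp1 and Cd36 in the apical plasma membrane, held by 2.16%. These terms span both directions, since Aqp1 was lower and Plvap and Cd36 higher in the BPVB group.

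Other parts of the vascular tree were examined with lists of the same kind. Of 11 arterial genes, 5 fell and 2 rose (median -0.19), with falls in the Notch ligand gene Dll4 (-0.93, adjusted p = 3.47e-06), the chemokine receptor gene Cxcr4 (-0.88, adjusted p = 3.76e-05) and Nrp1 (-0.19, adjusted p = 0.00228), and rises in Unc5b (0.61, adjusted p = 0.000214) and Gja4 (0.53, adjusted p = 0.000115). Hey1 (-0.47) and Sema3g (-0.25) also fell, but Sema3g was not called after rescaling to TPM, with the replicate block, with no filter on low values or without BPVB replicate 1 or 2 or sham replicate 1 or 2. These 2, and Vcam1, Ephb4, Cnn1, Slc27a1, Dgat1, Ucp1, Lipe, Nppa, Actn2, Ryr2, Pln, Alas2 and Aqp4 where they are given, were named after their values were seen, to complete the short counts. Of 10 venous genes, 5 rose, namely Slc6a2 (1.52, adjusted p = 3.59e-05), the leukocyte adhesion gene Selp (0.79, adjusted p = 0.00024), Vcam1 (0.61), Flrt2 (0.73, adjusted p = 0.00139) and Prss23 (0.15, adjusted p = 0.00228), and 1 fell (median 0.15). The gene that fell, Ephb4 (-0.12), was not called when any 1 of the 6 libraries was left out. Of 8 lymphatic genes, 6 rose and 1 fell (median 0.82), with rises in Ccl21 (2.11, adjusted p = 2.82e-08), Pdpn (2.04, adjusted p = 1.41e-06) and Mmrn1 (1.16, adjusted p = 4.62e-05) and a fall in Lyve1 (-0.47, adjusted p = 0.000162). Whether these rises, that of Pdpn among them, came from lymphatic vessels or from lung tissue in the samples was not tested. Of 10 mural cell genes, 4 fell and 1 rose (median -0.09). The pericyte receptor gene Pdgfrb rose (0.62, adjusted p = 4.88e-06), and the contractile genes Myh11 (-0.30, adjusted p = 4.24e-05) and Acta2 (-0.18, adjusted p = 0.000126) and the pericyte gene Rgs5 (-0.23, adjusted p = 9.61e-05) fell, as did Cnn1 (-0.13), which was not called under quantile normalization.

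**Figure D5:**
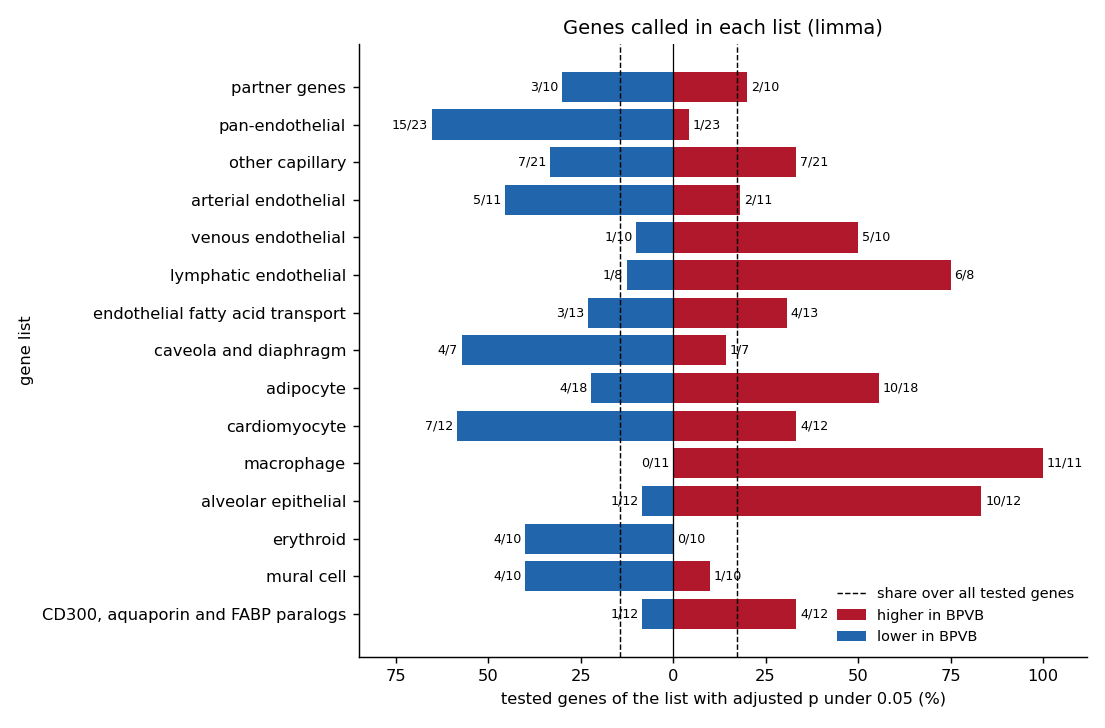
Share of the tested genes of each list with a limma adjusted p under 0.05 (x axis, percent), higher in BPVB to the right in red and lower to the left in blue, with the number called of the number tested at each bar. The dashed lines are the shares over all tested genes, 17.2% higher and 14.3% lower. The pan-endothelial list reaches 15 of 23 lower and the macrophage list 11 of 11 higher.

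Markers of other cells in the sample moved with the groups as well. Of the macrophage list, 11 genes were measured and all 11 rose (median 0.64), while Marco was not analysed here. Among them were Lyz2 (1.85, adjusted p = 1.44e-09), Cd68 (1.09, adjusted p = 0.000234), Msr1 (0.92, adjusted p = 0.000464) and C1qc (0.46, adjusted p = 0.00226), and the summed level of all 11 was 278 to 287 FPKM in the sham and 764 to 781 FPKM in the BPVB libraries. When BPVB replicate 2 or 3 or sham replicate 1 or 2 was left out, 10 of the 11 were called higher. Of 12 alveolar epithelial genes, 10 rose and 1 fell, and the sum was 145 to 149 FPKM in the sham and 661 to 714 FPKM in the BPVB libraries. Only 9 rose with the replicate block, with no filter on low values, or without BPVB replicate 1 or 3 or sham replicate 1 or 3. The surfactant genes Sftpc (3.40, adjusted p = 8.65e-10), Sftpb (3.31, adjusted p = 5.69e-07) and Sftpa1 (3.09, adjusted p = 2.32e-09) led that list. Hopx, at a sham mean of 70.9 FPKM against 36.6 FPKM for Sftpc, fell (-0.26, adjusted p = 0.00201). Which cells the Hopx reads came from was not tested.

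Of 18 adipocyte genes, 10 rose and 4 fell, with a median of 0.55 and sums of 713 to 722 FPKM in the sham and 739 to 751 FPKM in the BPVB libraries. Retn (2.47, adjusted p = 3.51e-05), Pck1 (1.86, adjusted p = 4.18e-06) and the lipid droplet gene Plin1 (1.83, adjusted p = 2.36e-05) rose, and Lpl, Lipe (-0.15) and the brown fat genes Cidea (-0.24, adjusted p = 0.00457) and Ucp1 (-0.66) fell. Lipe lost its call after rescaling to TPM, with the replicate block and when any library but BPVB replicate 3 was left out. Of 12 cardiomyocyte genes, which mark the muscle sleeve of the PV, 7 fell and 4 rose, with rises in Nppa (0.23), Actn2 (0.29), Ryr2 (0.38) and Pln (0.27) and falls in Ttn (-0.92, adjusted p = 2.42e-06), Tnni3 (-0.69, adjusted p = 9.87e-07) and Myl7 (-0.59, adjusted p = 4.84e-07). The cardiomyocyte sum was 19237 to 19665 FPKM in the sham and 14252 to 14751 FPKM in the BPVB libraries. Of 10 erythroid genes, 4 fell and 0 rose by limma, and the sums of the groups overlapped, at 15369 to 19105 and 12831 to 16259 FPKM. Among these, Ahsp (-0.83, adjusted p = 0.00965), Hba-a3 (-0.42, adjusted p = 0.000958) and Alas2 (-0.14) fell, whereas the abundant globin genes Hba-a1 (-0.25, adjusted p = 0.0672) and Hba-a2 (-0.37, adjusted p = 0.0803) did not pass. The difference of Hba-a1 was -0.16 without BPVB replicate 2. Alas2 lost its call after rescaling to TPM and when any library but sham replicate 2 was left out. The part of macrophages, adipocytes, alveolar tissue, muscle or erythroid cells in the levels of Cd36, Fabp4, Aqp7, Aqp1 and the other members was not tested.

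Relatives of the members by sequence family were measured to see whether reads or levels of a family moved together. Of 19 CD300, aquaporin and fatty acid binding protein genes in the table, 12 were tested, 4 rose, 1 fell and 7 did not pass. The water channel genes Aqp5 (2.52, adjusted p = 2.31e-06) and Aqp4 (1.31) and the leukocyte receptor genes Cd300a (1.04, adjusted p = 0.00052) and Cd300c2 (0.81, adjusted p = 0.0418) rose. The ranges of Cd300c2 overlapped between the groups, and its call was lost under quantile normalization, with no filter on low values and without BPVB replicate 1 or 3 or sham replicate 1 or 2. Aqp4 was at 0.111 to 0.125 FPKM in the sham and 0.879 to 1.24 FPKM in the BPVB libraries, and at such levels its log2 difference depended on the setting, from 0.87 with a pseudocount of 1 to 3.03 with limma-voom. Aqp5 is also one of the alveolar epithelial markers above, a list of which 10 of 12 rose. Fabp3, the heart fatty acid binding protein gene, fell (-0.34, adjusted p = 3.04e-05).

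Over the 6 libraries, the genes most like Cd300lg by Pearson's r of log2(FPKM + 0.5), among the 12147 genes other than the members that averaged 1 FPKM or more, were Rab3b, Rgs4, Zhx3, Acat1 and Tmod2, each at an r of 0.999. All 5 were lower in the BPVB group, from 21.1 ± 0.24 to 9.99 ± 0.78 FPKM for Rab3b and from 44.9 ± 0.60 to 30.4 ± 1.8 FPKM for Rgs4 (SD, n = 3 each). These 6 points fall into 2 groups, so any gene with a tight difference between the groups scores high, and 124 genes had an r above 0.99. Among the members, r with Cd300lg was 0.98 for Aqp1, 0.97 for Rgcc, 0.93 for both Gpihbp1 and Aplnr, -0.04 for Fabp4, -0.75 for Meox2, -0.94 for Cd36, -0.98 for Aqp7 and -0.99 for Plvap.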

How the data were processed

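RNA of PV tissue from 3 BPVB and 3 sham rats, grouped by the sample labels, was sequenced by the authors, who deposited 1 FPKM value per gene and rat for 17833 genes with NCBI Gene numbers and Gene Ontology terms. The paper's methods name fastp, HISAT and HTSeq-count, and the submitters' processing notes name HISAT2 2.0.5, StringTie 1.3.3b, featureCounts 1.5.0-p3 and DESeq2 1.20.0. The library kit also differs between the paper (VAHTS Universal V6) and the labels (NEBNext Ultra). The genome build and the use of strand in counting are not given in the sources used here. FPKM are scaled to the library total, so a rise of abundant transcripts lowers the share of the rest.

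From the deposited FPKM, the fragments behind each value were recovered from the whole-number steps of each gene (in 100.0% of genes every value came within 0.01 fragments of a whole number) and gave the depth of each library and 1 alternative test. Genes averaging 0.1 FPKM or more were tested with limma 3.58.1 in R 4.3.3 (lmFit and eBayes with trend, log2(FPKM + 0.5), two-sided, Benjamini-Hochberg over all 15150 genes), a gene being called at an adjusted p under 0.05. limma on the log scale was used because the deposited values are FPKM, not counts. Log2 differences understate the change of low genes. The test was first tried on simulated data. It recovered 95 of 99 genes given a 2-fold change and 99 of 100 given a 4-fold change. It also called 22 genes that were given no change. Tables, promoters and figures were made with Python 3.11.15, pandas 2.3.3, numpy 2.4.6, scipy 1.17.1 and matplotlib 3.10.9.

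The members and the gene lists were chosen with earlier results of these data known. Named genes were all members and all genes linked to them, in each other list the 3 called genes with the largest change and the 2 with the highest level (the former among genes averaging 1 FPKM or more), and the 5 genes most like Cd300lg. The values of 1 gene that this rule names are not reported here. Alternatives were other pseudocounts, filters and scalings, the replicate number as a block, robust variance moderation, limma-voom on recovered fragments and leaving out each library. Of the genes on the lists, Apela, Robo4, Car4, Marco, Aqp2 and Aqp6 were not analysed here. The single-cell and sirolimus experiments of the study were not analysed here. All value columns of the table were used (0 left out). The labels do not say whether the rats of a group came from separate litters, so p-values measure the spread between these 6 samples.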

Additional observations from a re-analysis of the deposited data

How the results depend on the processing

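The members' log2 differences kept their sign under all settings tried, except Fabp4, which lay between -0.03 and 0.13, and the copy of Cd36 was added to it only after the data had been seen. Cd300lg ranged from -2.48 with a pseudocount of 1 to -3.03 with limma-voom on recovered fragments. Over the scalings the median log2 difference of all genes lay between -0.01 and 0.06. In the venous list, the single gene called lower became 2 with median-of-ratios factors, 0 after rescaling to TPM, 0 with the replicate number as a block, 3 with limma-voom, and 0 to 0 when leaving out 1 library at a time. In the erythroid list, the 4 genes called lower became 7 with limma-voom and 2 to 6 when leaving out 1 library, and the 0 called higher became 0 to 1. Vwf changed sign under quantile normalization (0.044), and Meox1 without sham replicate 1 (-0.019, and 0.28 without sham replicate 2). The causes were not tested. Called genes over the whole table split into 2605 higher and 2170 lower, and the balance moved with scaling, to 2362 and 2454 with median-of-ratios factors, 2972 and 1857 with TPM and 2355 and 2433 with quantile normalization. Under quantile normalization Myl7 and Ehd2 lost their call (-0.15 and -0.07), Lmf1 was at -0.29, Meox1 at 0.08, Pparg at 0.06 and Hba-a1 at 0.00, and Pecam1 (-0.11), Cav2 (-0.13), Cavin3 (0.21) and Acta2 (-0.11) moved by over 1.5 times on the same side of the threshold. Replicate numbers were shared by the groups, but same-numbered libraries deviated together only weakly (r of 0.031, 0.025 and 0.019 over 12157 genes, each the best match of its library), so no pairing was assumed. With the replicate block 2466 genes were called higher and 2073 lower, against 2605 and 2170 without it. Low levels limit Cd300lg in the BPVB group, with as few as 88 fragments in a library.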
